A study of Rattus norvegicus with 8 samples.

Results

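The genes described here mark radial glia, the neural stem cells of the developing brain, and the astrocyte progenitors that come from them. There were 8: the transcription factor genes Pax6, Sox2 and Sox9, the intermediate filament genes Nes (nestin), Vim (vimentin) and Gfap (glial fibrillary acidic protein), and the marker genes Fabp7 (brain lipid-binding protein) and S100b (a calcium-binding protein). They were chosen by name, with earlier results of these data known, from 13810 genes that a probe set named alone. In all 11 of 31142 probe sets carried 1 of these names alone, 8 on the array type called chip A and 3 on chip B. Sox2 had 4 probe sets, 2 on each type, and Sox9 had a single one, on chip B.

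The samples were total RNA of cells that flow cytometry isolated from rat brain at postnatal day 7 for the markers A2B5 and OTMP. The labels call them perineuronal oligodendrocytes, glia that lie beside the cell bodies of neurons. Each of 4 biological replicates was read on both array types, which gave 8 samples. There was 1 cell population, with no control group, and p-values rest on the spread between these 4 replicates alone. For each probe set, limma draws that spread towards the one typical of its array type. The strain, and how many animals make up a replicate, are not given in the sources used here. Each deposited value is a linear ratio, set against a reference signal that the labels leave unnamed. A ratio of 1 means the same signal as in that reference. It does not show how much RNA was present, or whether a gene was expressed, and it does not rank 1 gene's expression above another's. In a sorted bulk sample, fewer cells of a type and less RNA per cell cannot be told apart.

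Radial glia line the ventricles of the embryonic brain, divide to give neurons, and later turn into astrocytes. Sox2 keeps neural stem cells undifferentiated, Pax6 drives patterning and neuron formation in cortical radial glia, and Sox9 starts the switch to glia and stays on in astrocytes. Nestin and vimentin form the filaments of radial glia and immature astrocytes. Gfap joins and partly replaces them as astrocytes mature, Fabp7 carries fatty acids in radial glia, and S100b appears in maturing astrocytes and in part of the oligodendrocyte lineage. On GRCr8, the RefSeq rat assembly, Gfap lies at chr10:88352987-88361661 and Sox9 at chr10:98305744-98311250, Sox2 at chr2:119465131-119467542 and Nes at chr2:175735715-175745631. Pax6 lies at chr3:112590034-112611771, Vim at chr17:81577261-81585746, S100b at chr20:12372345-12381159 and Fabp7 at chr20:37667125-37673299.

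Promoter sequence from RefSeq was matched for 7 of the 8 genes. The 250 bases before the annotated start are shown for the 3 whose stretch lies outside the annotated gene. They are Gfap and Vim, a filament pair whose ratios differed, and Sox2. Capitals mark TTGGC, a core motif of nuclear factor I factors, and TATAAA, the TATA box, on either strand.
Gfap (chr10:88361662-88361911, minus strand): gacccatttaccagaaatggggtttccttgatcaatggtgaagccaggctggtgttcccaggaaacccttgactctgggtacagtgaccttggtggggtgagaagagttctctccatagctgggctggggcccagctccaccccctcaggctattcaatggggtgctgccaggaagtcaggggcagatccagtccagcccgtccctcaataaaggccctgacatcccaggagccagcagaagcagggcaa
Vim (chr17:81577011-81577260, plus strand): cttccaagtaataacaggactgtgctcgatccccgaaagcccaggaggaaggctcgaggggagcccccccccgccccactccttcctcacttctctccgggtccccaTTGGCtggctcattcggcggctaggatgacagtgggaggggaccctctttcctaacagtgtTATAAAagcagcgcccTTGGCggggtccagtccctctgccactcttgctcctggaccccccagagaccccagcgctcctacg
Sox2 (chr2:119464881-119465130, plus strand): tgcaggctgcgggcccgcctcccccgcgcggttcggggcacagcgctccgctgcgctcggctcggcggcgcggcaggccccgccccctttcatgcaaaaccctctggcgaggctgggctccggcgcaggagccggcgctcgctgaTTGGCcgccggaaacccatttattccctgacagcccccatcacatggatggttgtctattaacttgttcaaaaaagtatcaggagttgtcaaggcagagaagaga
TTGGC was found 2 times before Vim, 1 time before Sox2 and 0 times before Gfap, and 40.3% of 33469 stretches of this length held it. TATAAA was found before Vim alone of the 3, against 12.9% of all stretches. Other motifs searched on both strands were the SOX letters ACAAAG (16.3% of all stretches) and ACAAT (10049 of 33469), the STAT site TTCNNNGAA (7.67%) and the E-box CANNTG (65.5%). Of these, the 3 printed stretches held 1 match, an E-box before Sox2. A match is a description of the letters only.

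Gfap and Pax6 had the highest ratios of the 8 genes, at about 2.6 times the reference, and Sox9 had the lowest. Against a ratio of 1, 3 member probe sets were higher in limma (Gfap, Pax6 and Fabp7), 2 were lower (Sox9 and 1 of the 4 of Sox2), and 6 did not pass. The background was 9.21% of 15866 probe sets higher and 30.1% lower on chip A, and 5.08% of 15276 higher and 27.1% lower on chip B. Lower calls were thus common among all probe sets. By gene, 3 of the 8 had a higher probe set and 2 a lower one, where 9.23% and 37.7% of all 13810 genes did. The members' median log2 ratio was 0.01, beside -0.16 over all genes. Subtracting each array's median raised the log2 ratios by 0.12 (chip A) and 0.10 (chip B). It moved the share of chip A calls that were higher from 23.5% to 33.7%, and that of chip B from 15.8% to 19.3%. The background was then 11.8% higher and 23.3% lower on chip A, while chip B had 5.68% and 23.7%.

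**Figure D1:**
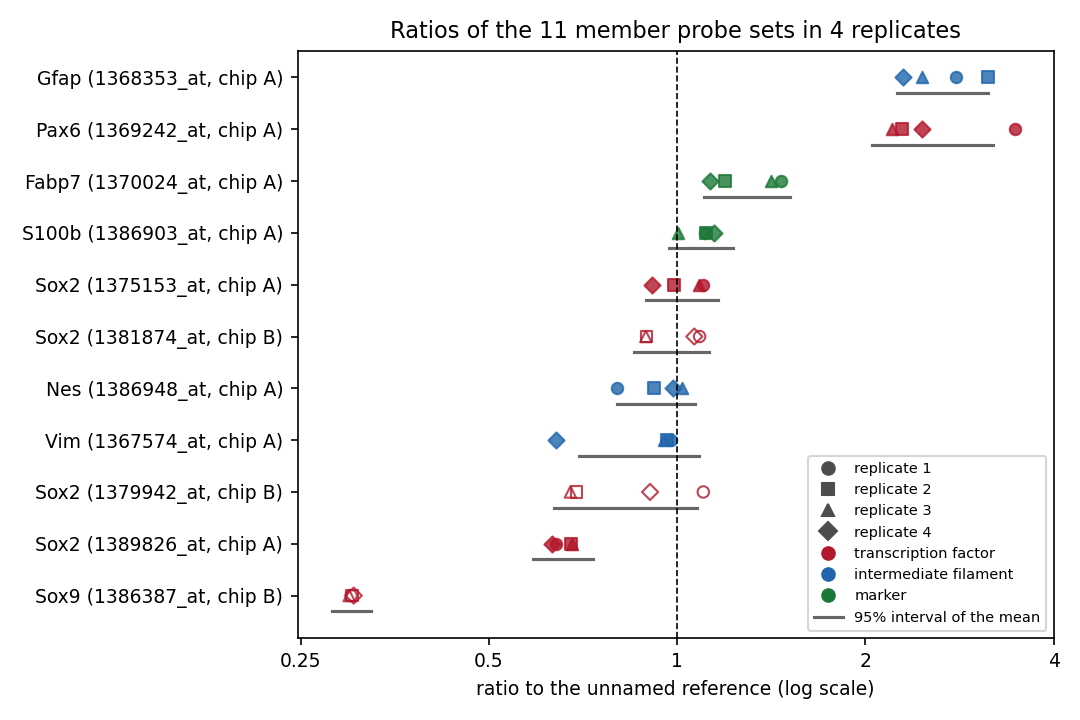
Deposited ratio of each of the 11 member probe sets (log axis), with a symbol for each of 4 replicates, filled for chip A and open for chip B, and colours for gene class. Grey lines are limma's 95% intervals of the mean and the dashed line is a ratio of 1. Gfap and Pax6 lie above 2 in every replicate and Sox9 lies near 0.3 in every replicate.

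Pax6, which encodes a paired-box and homeodomain factor, had ratios of 3.472, 2.291, 2.204 and 2.459 in replicates 1 to 4. All lay above 2, and replicate 1 was the highest. The mean log2 ratio was 1.36 ± 0.30 (SD, n = 4; limma adjusted p = 0.000791), a ratio of 2.56 with a 95% interval from 2.05 to 3.20. Of all chip A probe sets 1.77% had a higher mean. The call held with any 1 replicate left out (log2 ratio 1.21 to 1.43, limma adjusted p from 0.00168 to 0.00604).

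Sox9, an HMG-box factor, went the other way, with ratios of 0.301, 0.302, 0.299 and 0.304. Its mean log2 ratio was -1.73 ± 0.01 (n = 4; limma adjusted p = 5.93e-05), a ratio of 0.301 with an interval from 0.280 to 0.324, and 0.805% of chip B probe sets had a lower mean. The 4 replicates hardly differed: 26 of the 15276 chip B probe sets had a smaller SD. Chip B had 261 probe sets with a mean log2 ratio under -1.5, and 61 of them (23.4%) had an SD under 0.02. On chip A, 0 of 210 did. With each probe set taken around its own mean, 331 other chip B probe sets (2.17%) lay within 0.02 (root mean square, log2) of Sox9. This tolerance exceeds the Sox9 SD of 0.01. The number thus counts nearly flat probe sets and shows no shared rise and fall. A ratio this even and low does not show whether the probe set detected the transcript.

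Sox2, an HMG-box factor of neural stem cells, gave different values with its 4 probe sets. The chip A probe set 1375153_at had ratios of 1.098, 0.989, 1.085 and 0.912, on both sides of 1. The chip A probe set 1389826_at had 0.641, 0.676, 0.679 and 0.630, all below 1 and below every value of the former. On chip B, 1379942_at had 1.101, 0.690, 0.675 and 0.905, and 1381874_at had 1.086, 0.893, 0.891 and 1.065. Both chip B probe sets were higher in replicates 1 and 4 than in replicates 2 and 3, an order that the chip A probe sets did not share.

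Of the 4 Sox2 probe sets, 1389826_at was the one to pass, at a mean log2 ratio of -0.61 ± 0.05 (n = 4; limma adjusted p = 0.00113). The others stood at 0.03 ± 0.13 (limma adjusted p = 0.817), -0.28 ± 0.34 (0.225) and -0.03 ± 0.16 (0.777). The second of these, 1379942_at, was -0.42 without replicate 1 (limma adjusted p = 0.0907), -0.19 without replicate 2 (0.483) and -0.18 without replicate 3 (0.44). The replicate pattern of 1389826_at around its own mean was matched within 0.02 by 1414 other chip A probe sets (8.91%), among them 24 of 74 probe sets of a panel of genes from other organs, such as digestive enzymes and milk proteins. For 1375153_at the number was 12, with 0 of the panel. The average of both array types was -0.22 for Sox2 (limma adjusted p = 0.0355 over 2268 genes on both types, of which 1183 passed). With the replicate as a block over 8 arrays it was the same, with limma adjusted p = 0.0257, and 1242 of the 2268 genes passed. A pass was thus common among these genes. Both averages include 1389826_at, the lowest of the 4, and neither was taken without it. The other Sox2 probe sets did not pass alone, so the averages do not show that Sox2 was lower on its probe sets in general. The ratios of 1389826_at do not show whether it detected the transcript.

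Among the filament genes, Gfap had ratios of 2.790, 3.137, 2.463 and 2.294. Every value lay above 2, with replicate 2 the highest. The mean log2 ratio was 1.41 ± 0.20 (n = 4; limma adjusted p = 0.000255), a ratio of 2.65 with an interval from 2.24 to 3.13, and 1.58% of chip A probe sets had a higher mean. Leaving out any 1 replicate gave 1.33 to 1.48 (limma adjusted p from 0.00128 to 0.0023).

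Nes and Vim lay near the reference. Nes, the filament gene of neural stem cells, had ratios of 0.802, 0.917, 1.017 and 0.983, and its mean log2 ratio was -0.11 ± 0.15 (limma adjusted p = 0.345). With the array medians subtracted it was 0.01 (0.94), so its sign has no weight. Vim had 0.976, 0.962, 0.953 and 0.639. Replicates 1 to 3 lay close together and replicate 4 lay well below them. The mean of -0.20 ± 0.30 did not pass (limma adjusted p = 0.268), and it was -0.05 without replicate 4 (0.662). The intervals of the mean, as ratios, ran from 0.802 to 1.07 for Nes and from 0.697 to 1.08 for Vim.

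Within each replicate, Gfap stood above Vim by 1.61 ± 0.21 on the log2 scale (4 of 4 replicates) and above Nes by 1.52 ± 0.31 (4 of 4). The ranges did not overlap, since the lowest Gfap ratio was 2.294 and the highest of Nes and Vim was 1.017. Nes and Vim differed from each other by 0.09 ± 0.39, with Nes the higher in 2 of 4. These are differences between ratios to the reference, not between transcript levels. An exact sign-flip test over 4 replicates cannot go below a two-sided p of 0.125, so none was run.

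Fabp7 had ratios of 1.464, 1.192, 1.415 and 1.129, all above 1, with replicates 1 and 3 above replicates 2 and 4. Its mean log2 ratio was 0.37 ± 0.18 (n = 4; limma adjusted p = 0.0262), a ratio of 1.29 with an interval from 1.1 to 1.52. It did not pass without replicate 1 (0.31, limma adjusted p = 0.0909) or replicate 3 (0.33, 0.0845), nor with a trended, robust prior (0.0641). The mean log2 ratios of 4 of the 9 marker lists were also higher in replicates 1 and 3 than in 2 and 4. They were 1.91, 1.25, 1.75 and 1.16 in replicates 1 to 4 for astrocyte, 1.15, 0.44, 0.74 and 0.65 for neuron, -0.41, -0.70, -0.01 and -0.62 for microglia and -0.07, -0.37, 0.04 and -0.42 for cell cycle markers. Ependyma markers ran the other way, at -0.37, 0.38, -0.53 and 0.13. In the remaining lists replicates 1 and 3 were not both above replicates 2 and 4. What part these cell types had in the Fabp7 values was not tested.

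S100b had ratios of 1.107, 1.110, 1.002 and 1.146, the lowest in replicate 3. The mean log2 ratio of 0.12 ± 0.08 did not pass (n = 4; limma adjusted p = 0.208), with an interval, as a ratio, from 0.969 to 1.23. With the array medians subtracted it did pass, at 0.24 (0.0404). All 4 ratios lay above 1 for Gfap, Pax6, Fabp7 and S100b, as for 12.6% of chip A probe sets, and all 4 lay below 1 for Vim and 1389826_at of Sox2, as for 39.1%. The same held for Sox9, as for 36.8% on chip B.

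Measured against the panel of genes from other organs in place of 1, Gfap and Pax6 were also higher. The panel's 95th percentile, over 74 probe sets, lay at ratios from 1.02 to 1.35 on the chip A arrays. Chip B had 4 panel probe sets, so its levels, from 0.961 to 1.29, were those of chip A moved by the median difference over 100 shared probe sets. Gfap exceeded it by a mean of 1.15 on the log2 scale (limma, one-sided, adjusted p = 0.000633) and Pax6 by 1.1 (0.00389), where 3.14% of chip A and 5.02% of chip B probe sets passed. Fabp7 lay above it by a mean of 0.12 and did not pass (limma adjusted p = 1), and none of the other member probe sets passed. In the panel 34 of 63 genes had a lower probe set against a ratio of 1 and no higher one, and 1 had a higher one. These are 54.0% and 1.59%, beside 37.7% and 9.23% of all genes.

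In order of mean log2 ratio the probe sets ran Gfap, Pax6, Fabp7, S100b, Sox2 (1375153_at), Sox2 (1381874_at), Nes, Vim, Sox2 (1379942_at), Sox2 (1389826_at) and Sox9. The ranges of neighbours overlapped except in 2 places, between Pax6 (lowest 2.204) and Fabp7 (highest 1.464) and between the lowest Sox2 probe set (lowest 0.630) and Sox9 (highest 0.304). Gfap and Pax6 differed by 0.05 ± 0.33 within a replicate, with Gfap the higher in 2 of 4.

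Set side by side as classes, the transcription factor genes had the lower mean, with each gene averaged over its probe sets. Their mean log2 ratio was 0.00, -0.28, -0.30 and -0.21 in replicates 1 to 4, or -0.20 ± 0.14 (n = 4). The filament and marker genes had 0.36, 0.37, 0.35 and 0.18, or 0.32 ± 0.09. The transcription factor mean was thus below that of the other class in 4 of 4 replicates, by -0.52 ± 0.16. This rested on the Sox9 probe set: without Sox9 the difference was 0.25, the other way, and with chip A probe sets alone, which leaves out Sox9, it was 0.22. Without Pax6 it was -1.29, and without Gfap -0.24. Within the transcription factor and filament classes, genes differed by more than the classes did. Pax6 stood above Sox9 by 3.09 ± 0.30 and above Sox2 by 1.58 ± 0.19, each in 4 of 4 replicates, and Gfap stood above Vim by the 1.61 given above.

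**Figure D2:**
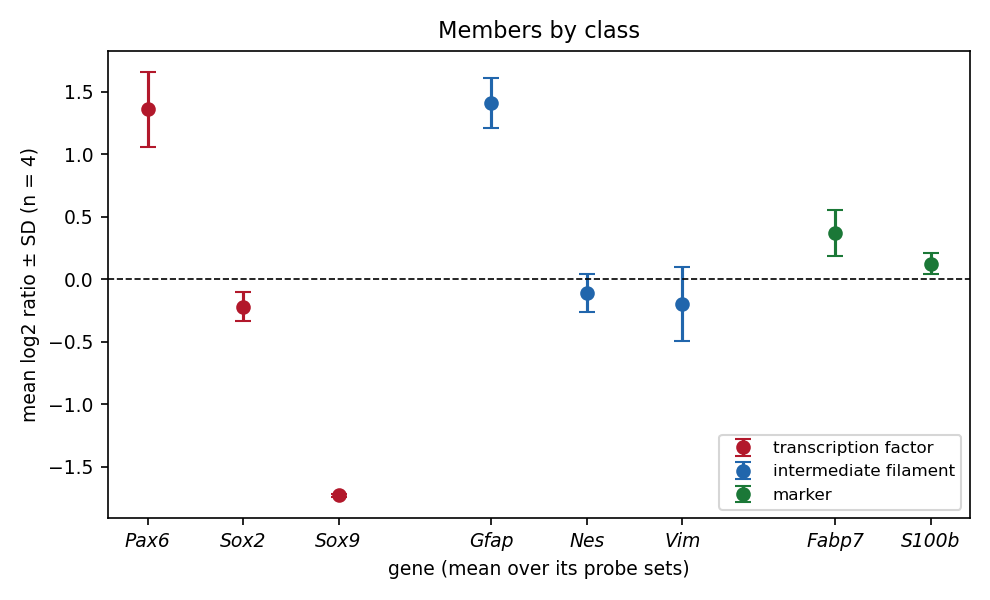
Mean log2 ratio ± SD over 4 replicates of the 8 genes, each averaged over its probe sets and grouped by class, with the dashed line at a ratio of 1. Pax6 (1.36) and Sox9 (-1.73) bound the transcription factors, and Gfap (1.41) and Vim (-0.20) bound the filaments.

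**Figure D3:**
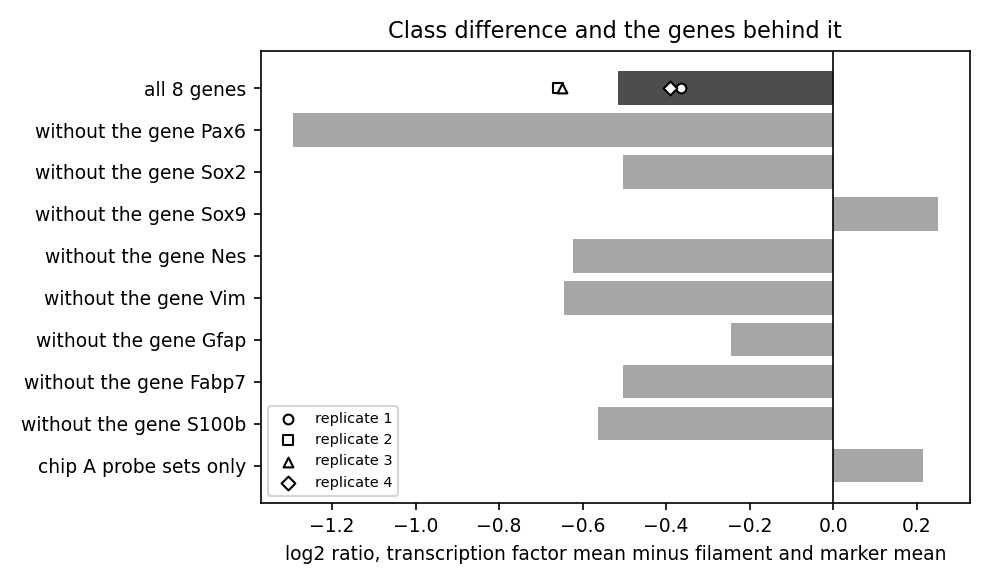
Transcription factor mean minus filament and marker mean (log2 ratio, bars start at 0) with all 8 genes, with each gene left out and with chip A probe sets alone. Symbols on the top bar are the 4 replicates. The difference of -0.52 turns to 0.25 without Sox9.

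The single-gene probe sets nearest to a member were found by the root mean square difference of log2 ratio over the 4 arrays of a type, among 12783 on chip A and 7564 on chip B. Nearest to Gfap were Cdh22, a cadherin gene, at 0.09, Slc25a18, a mitochondrial glutamate carrier gene, at 0.15, and Jakmip1 at 0.16. Pax6 lay closest to Zfp704, a zinc finger gene, at 0.08, Fbrsl1 at 0.09 and Kcnj16, a potassium channel gene, at 0.10. Fabp7 was followed by Acp2, Extl3 and Tapt1, all at 0.06. Nearest to the lower Sox2 probe set were Tas2r123, a bitter taste receptor gene with ratios of 0.643, 0.680, 0.682 and 0.633, at 0.0067, Fam120c at 0.0098 and LOC102556495 at 0.0108. Nearest to Sox9 were Tmem131 at 0.0187, Fbxo17 at 0.0212 and Lmod3, a leiomodin gene of muscle, at 0.0229. These distances describe 4 arrays only.

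Of other genes of radial glia and progenitors, 34 were measured, and 20 of them had a higher probe set. That is 58.8%, with 23.5% that had a lower one, beside 9.23% and 37.7% of all genes. This list and those below were chosen with earlier results of these data known. In detail 16 had higher probe sets only, 4 lower only, 4 both kinds and 10 none past the test, and the median log2 ratio was 0.47 beside -0.16 over all genes. The highest were Tnc, the tenascin C matrix gene, at 2.06 ± 0.27 (limma adjusted p = 0.000162), Gli2, a hedgehog effector, at 1.67 ± 0.61 (0.00368), and the adhesion gene Vcam1 at 1.53 ± 0.35 (0.000785). The lowest were Pou3f2, a POU factor gene, at -1.91 ± 0.05 (9.73e-05), Fut4, which makes the LewisX epitope, at -0.69 ± 0.18, and Fgfr2 at -0.55 ± 0.08. Pou3f2 had 1 probe set, with low and even ratios of 0.262, 0.275, 0.272 and 0.256, which do not show whether it detected the transcript. Fut4 had 1 lower of 2 probe sets, from -1.12 to -0.26. Fgfr2 had 1 higher and 3 lower among its 5 probe sets, from -1.72 to 0.81, so the mean covers both directions.

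Of the 6 lists, that of astrocyte genes had the largest share of genes with a higher probe set. Of 24 measured, 16 were higher only, 2 lower only and 5 both, with 1 not called and a median log2 ratio of 0.86. A higher probe set was thus found for 87.5% and a lower one for 29.2%, beside 9.23% and 37.7% of all genes. Agt (angiotensinogen) stood at 2.98 ± 0.23, the amino acid transporter gene Slc7a10 at 2.96 ± 0.11 and Aldh1l1, a folate enzyme gene, at 2.50 ± 0.52 (limma adjusted p from 9.73e-05 to 0.000474). At the low end, Ndrg2 stood at -0.39 ± 0.19 and Cd44 at -0.26 ± 0.10, each with 1 higher and 1 lower probe set, and the potassium channel gene Kcnj10 at -0.27 ± 0.08 (limma adjusted p = 0.0263). Slc1a3 and Fgfr3 are in both lists. Gfap's 1.41 lay within the range of this list.

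Among relatives of the members, the shares with a lower probe set were 29.4%, 37.5% and 42.9% in the 3 lists that follow, near the 37.7% of all genes. Those with a higher one were 11.8%, 6.25% and 0%, beside 9.23%. Of 17 other intermediate filament genes and partners, 1 was higher only (the linker gene Plec at 0.51 ± 0.24, limma adjusted p = 0.0169), 4 lower only, 1 both (Synm, synemin, with probe sets from -2.80 to 0.55) and 11 not called, with a median of -0.08. Lmna, a lamin gene, stood at -0.94 ± 0.28 and Dst at -0.61 ± 0.01. Dst had 2 lower of 4 probe sets, from -1.12 to -0.10. Of 16 other Sox and Pax genes, 1 was higher, Sox11 at 1.41 ± 0.28 (limma adjusted p = 0.000584), and 6 were lower, with Pax4 at -0.79 ± 0.04, Sox17 at -0.77 ± 0.18 and Pax9 at -0.41 ± 0.07 the lowest. Their median was -0.10. Sox17 had 2 lower of 3 probe sets, from -1.28 to 0.14. Of 21 other S100 and fatty acid binding protein genes, 0 were higher in limma (0 also at an unadjusted p under 0.05) and 9 lower, with a median of -0.14. The lowest were Fabp12 at -1.01 ± 0.06, Fabp2, of intestine, at -0.94 ± 0.06 and Fabp1, of liver, at -0.59 ± 0.08, the latter pair also part of the panel.

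Of genes of signalling pathways linked to glial fate, inhibitors among them, 20% had a higher probe set and 40% a lower one. The latter is near the 37.7% of all genes. Of the 20 measured, which held ligands, receptors and effectors of the CNTF and LIF, BMP and neuregulin pathways, 2 were higher only, 6 lower only, 2 both and 10 not called, with a median of -0.10. Higher were the receptor genes Erbb2 at 1.07 ± 0.24 (limma adjusted p = 0.0011) and Bmpr1a at 0.84 ± 0.39 (0.0103). The lowest were the inhibitor gene Socs3 at -0.73 ± 0.17 and the ligand genes Lif at -0.61 ± 0.09 and Il6 at -0.57 ± 0.08 (limma adjusted p from 0.00152 to 0.00192). Smad5 had 1 higher and 1 lower of 3 probe sets, with a mean of -0.06. Stat3, through which CNTF and LIF act on the Gfap gene, stood at 0.14 ± 0.13 and did not pass (0.45).

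**Figure D4:**
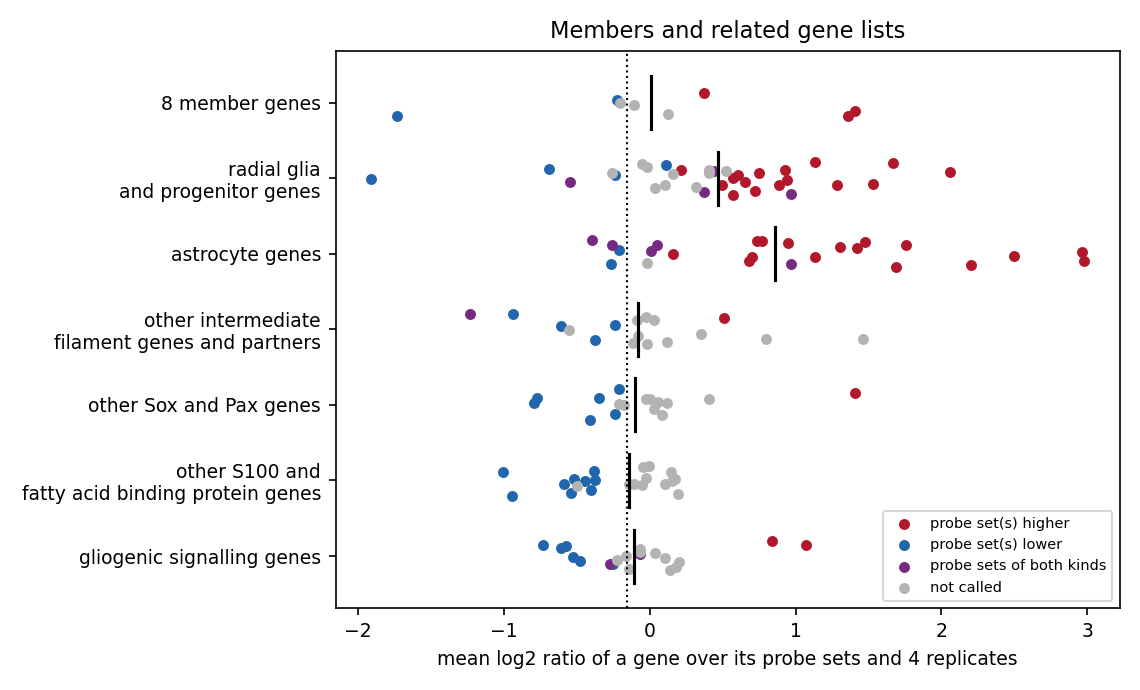
Mean log2 ratio of each gene (over its probe sets and 4 replicates) for the 8 members and 6 related lists, coloured by the limma calls of its probe sets. Black bars are list medians and the dotted line is the median of all 13810 genes (-0.16). The astrocyte list has the highest median (0.86).

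Markers of the cell types that the sort could hold were read the same way. Of 10 oligodendrocyte lineage genes, 1 had a higher probe set (Pdgfra) and 1 a lower one (Olig2), and their median log2 ratio was 0.02, while Sox10 stood at 0.00 ± 1.15 and Mbp at -0.01 ± 0.15. The 5 astrocyte markers, all of which are also in the astrocyte list above, had a higher probe set each (median 1.42), beside 9.23% of all genes. Of 8 neuron markers 6 did (median 0.73), as did 2 of 4 of choroid plexus and 2 of 7 of mural cells and fibroblasts. A lower probe set was found for 1 of 5 astrocyte, 2 of 8 neuron, 1 of 4 choroid plexus, 1 of 7 mural cell and fibroblast, 1 of 6 microglia and 1 of 6 cell cycle markers, beside 37.7% of all genes. In limma 0 of 4 ependyma, 0 of 6 microglia, 0 of 5 endothelium and 0 of 6 cell cycle genes had a higher probe set, and 0 of them at an unadjusted p under 0.05. These ratios do not show whether a marker was detected, and what part other cells had in the Gfap and Pax6 ratios was not tested.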

How the data were processed

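Cells sorted for A2B5 and OTMP were profiled on 2 Affymetrix array types with 4 arrays each. The submitters' processing notes name RMA. The authors deposited linear ratios, from 0.01 to 34.3, to a reference not given in the sources used here. Median ratios per array ran from 0.887 to 0.967. Ratios were put on the log2 scale, and each probe set was tested against a ratio of 1 with limma 3.58.1 in R 4.3.3 (an intercept and eBayes, two-sided), within an array type, with Benjamini-Hochberg adjustment over all 15866 or 15276 probe sets at 0.05. On each type 57 control probe sets were left out. The number of arrays limits the precision. Adjusted p-values and intervals are limma's throughout. The script was tested on simulated data with 200 changed probe sets per array type, far fewer than were called here. It recovered 38% (chip A) and 40% (chip B) of changes of 0.5 on the log2 scale. Of changes of 1 it recovered 66% and 72%. A probe set that did not pass is thus not shown to be unchanged. Names came from the platform's annotation, for probe sets with 1 symbol. In a list, a gene is higher or lower where at least 1 of its probe sets passed that way.

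All member probe sets are named, with the 3 highest and 3 lowest called genes of each list and the 3 nearest probe sets. Stat3, Sox10, Mbp, Pdgfra and Olig2 were named after their values were seen. The members and lists were chosen with earlier results of these data known, and the tolerance for matched replicate patterns and the SD limit after the values were seen. Same-numbered arrays of both types are the same biological replicate per the labels, and their deviations over 100 shared probe sets correlated with r from 0.736 to 0.823. Alternatives were array-median centring, quantile normalization, another prior, no moderation, a pseudocount, a filter on low ratios, a panel level, other gene summaries and leaving out replicates or genes. No sequence was used for Sox9.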

Additional observations from a re-analysis of the deposited data

Results flagged for a closer look

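The low Vim ratio of replicate 4 (0.639, against 0.953 to 0.976 in the others) stood apart from the other 3 replicates, with a gap of 0.944 of the whole range on the log2 scale. The mean over the filament and marker genes was also lowest in replicate 4 (0.18, against 0.35 to 0.37), with a gap of 0.883 of its range, and Vim is part of that mean. Replicate values of Kcnj10 (0.841) and Il6 (0.893) had a similar gap. A total of 44 sets of values were examined and 4 had such a gap, where chance alone gives about 1 in 20. Of all chip A probe sets, 5.48% had one.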

How the results depend on the processing

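Of the 11 member probe sets, Gfap, Pax6, Sox9 and the lower Sox2 probe set kept their calls and direction against a ratio of 1 under each of the centring, normalization, prior, moderation, pseudocount, filter and leave-one-out settings. A test above the panel level can pass no lower probe set. Fabp7 was lost without moderation (limma adjusted p = 0.0852), with the trended, robust prior, above the panel level, and without replicate 1 or 3 (0.31 to 0.43 over the 4 left-out replicates). Signs turned where values were near 0. With array medians subtracted Nes became 0.0073 and 1381874_at of Sox2 0.074. With a replicate left out, 1375153_at of Sox2 ran from -0.01 to 0.08 (from -0.0104 to 0.0789) and 1381874_at from -0.08 to 0.02 (from -0.0796 to 0.0155). Against the panel level S100b was at -0.13 and 1375153_at at -0.23. The class difference of -0.52 was 0.25 without Sox9, 0.22 on chip A alone, -1.29 without Pax6 and -0.24 without Gfap, and ran from -0.57 to -0.47 with a replicate left out. Without moderation 4089 chip A probe sets were called in place of 6230, with 706 in place of 1462 higher, and on chip B 360 in place of 776 were higher; above the panel level 498 passed on chip A. Leaving out a replicate gave 5 to 8 called S100 and fatty acid binding protein genes in place of 9. With the replicate block over both array types, Sox2 kept its mean of -0.22 (limma adjusted p = 0.0257 in place of 0.0355); it changed no other call, since no other member had probe sets on both types. Ratios hold no signal over background, so what dim probe sets limit is unknown.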
